A study of Mus musculus with 31 samples.

Results

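The splicing factor genes described here are the protein-coding genes of the mouse autosomes and X chromosome whose symbols begin with Srsf, Hnrnp, Sf3a, Sf3b, Snrp or Prpf. The imprinted gene Snrpn and symbols marked as pseudogenes were left out. This name rule gave 64 of 21627 protein-coding genes: 11 SR protein genes (Srsf), 20 hnRNP genes (Hnrnp), 9 genes of the SF3A and SF3B complexes, 11 genes of the Sm and U snRNP proteins (Snrp) and 13 PRPF genes. A gene was called marked in a library when a deposited peak lay within 2 kb of its start or its stop, on the mm10 assembly.

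The data are ChIP-seq libraries of H3K4me3 and H3K4me1, the trimethylated and monomethylated forms of lysine 4 of histone H3, from hippocampi of 16 C57BL6 mice aged 30 days. The mice were Kmt2d+/+ (wild type) or Kmt2d+/bGeo, heterozygotes with 1 allele interrupted by a βGeo insertion and used as a model of Kabuki syndrome. From 2 weeks of age they were gavaged for 2 weeks with TAK-418, which inhibits the demethylase LSD1, at 1 mg/kg/day, or with the vehicle methylcellulose alone. Each of the 4 groups (wild type vehicle, heterozygote vehicle, wild type TAK-418 and heterozygote TAK-418) had 4 H3K4me3 libraries, and H3K4me1 had 15 libraries in all. The tissue is a mixture of cell types, so a difference in the number of cells and a difference in the mark per cell cannot be told apart.

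Pre-mRNA splicing removes introns through the spliceosome, which assembles from small nuclear ribonucleoproteins (snRNPs) on each intron. The Sm proteins encoded by Snrp genes form the ring around the snRNAs, SF3A and SF3B belong to the U2 snRNP and contact the branch point, and many PRPF proteins build or remodel the tri-snRNP. SR proteins mostly favour, and hnRNP proteins often restrain, the use of nearby splice sites, and neurons use both to set alternative splicing. H3K4me3 sits at the promoters of active genes, Kmt2d encodes a methyltransferase of H3K4, and LSD1 removes methyl groups from H3K4.

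The H3K4me3 libraries fell into 2 kinds. The labels give the index sequence of each library and name no index set. The sequences were assigned here to index sets of the kind sold for such libraries, which put 1 library of each group in sets 1-2 and the other 12 in sets 3-4. The 4 libraries of sets 1-2 marked 55.7% to 60.8% of all protein-coding genes, whereas the 12 others marked 49 to 1953 genes each. The peak lists hold no read counts, so depth is unknown, and whether depth, immunoprecipitation or the index sets set this gap was not tested. Widths and enrichments are therefore described in the 4 libraries of sets 1-2, with 1 library per group and no test. In those libraries markers of excitatory hippocampal neurons were marked for 7 to 8 of 8 genes, of astrocytes for 2 to 5 of 7, of the oligodendrocyte lineage for 3 to 5 of 7, of vascular cells for 3 to 5 of 6 and of inhibitory neurons for 3 to 4 of 6. Markers of microglia (0 to 1 of 7) and blood (0 to 1 of 5) were mostly unmarked. Of the choroid plexus markers 1 to 2 of 4 were marked: Ttr and Folr1 had no peak in any of these libraries, while Kl and Otx2 each had one in at least 1.

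Nearly every splicing factor gene carried H3K4me3 in the hippocampus. Of the 64 genes, 62 were marked in the wild type vehicle library of sets 1-2, 63 in the heterozygote vehicle library, 63 in the wild type TAK-418 library and 62 in the heterozygote TAK-418 library. The same 61 genes (95.3%) were marked in all 4, beside 11243 (52.0%) of all protein-coding genes. All 11 SR genes, all 9 SF3A and SF3B genes and all 11 Snrp genes were among the 61, with 18 of 20 hnRNP genes and 12 of 13 PRPF genes. With only peaks of −log10 q of at least 5, 24 splicing factor genes (37.5%) were marked in all 4, beside 2834 (13.1%) of all protein-coding genes. Of 108 other spliceosome and splicing control genes, 98 to 105 were marked per library. The splicing kinase genes Srpk2 and Srpk3 and the RNA-binding factor Mbnl1 were the 3 with no peak at an end in any of the 4.

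**Figure D1:**
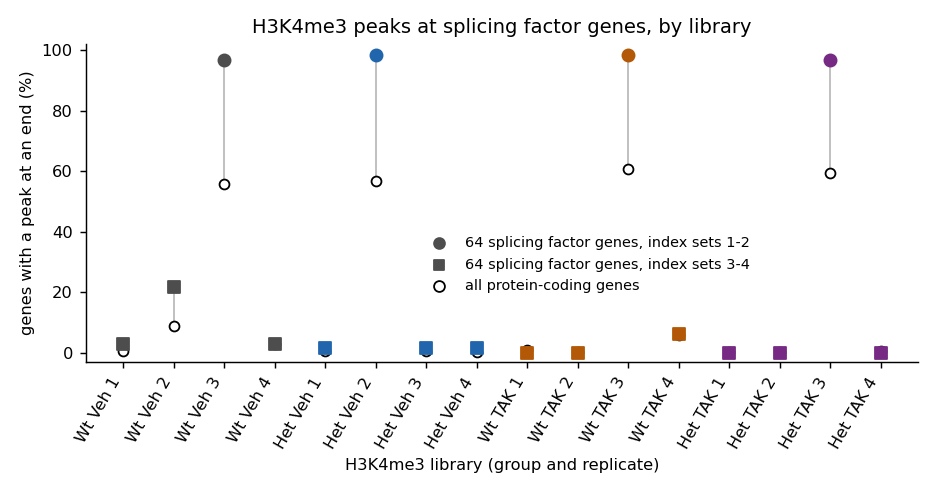
Percentage of the 64 splicing factor genes (filled symbols, coloured by group) and of all protein-coding genes (open circles) with an H3K4me3 peak within 2 kb of an end, in each of the 16 libraries on the horizontal axis. Circles are the 4 libraries of index sets 1-2, where 62 to 63 of the 64 genes were marked, and squares are the 12 libraries of sets 3-4, where 0 to 14 were.

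The 3 exceptions were Hnrnpf, Hnrnph2 and Prpf31. Hnrnpf, which binds runs of guanines in RNA, had no peak within 2 kb of either end in any of the 4 libraries, but all 4 had peaks inside the gene. One internal peak was 2194, 2442, 2330 and 2280 bp wide in the wild type vehicle, heterozygote vehicle, wild type TAK-418 and heterozygote TAK-418 libraries, with fold enrichments of 6.12, 4.52, 8.71 and 8.66, and covered 2 internal RefSeq starts. The other was 981, 928, 1095 and 1201 bp wide and covered 1 more. Hnrnpf was therefore unmarked by the distance rule while its internal starts were covered in every library of sets 1-2. Hnrnph2, the X-linked relative of Hnrnph1, had narrow peaks of 565, 519 and 595 bp in the first 3 of these libraries and none in the heterozygote TAK-418 library. Prpf31, a U4/U6 snRNP protein mutated in retinitis pigmentosa, had peaks of 671, 1279 and 1327 bp in the last 3 and none in the wild type vehicle library. Both were also among the 5 genes of lowest median enrichment, with folds of 2.70 to 4.67 for Hnrnph2 and 3.10 to 5.20 for Prpf31.

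The marks lay over transcription starts. RefSeq start sites were at hand for 56 of the 64 genes, and a peak covered a start in 49, 50, 52 and 55 of these genes in the wild type vehicle, heterozygote vehicle, wild type TAK-418 and heterozygote TAK-418 libraries. From the farthest upstream start the peaks reached a median of 386 to 450.5 bp upstream and 714 to 962 bp into the gene. Of the 50 genes longer than 6 kb with a known start, 4 had a peak within 2 kb of the stop in each library.

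The promoters of these genes were rich in CpG. In windows from 250 bases before to 50 after the start, the median ratio of observed to expected CpG was 0.920 over 56 splicing factor genes and 0.586 over 17273 genes, and 54 of 56 (96.4%) against 49.0% reached 0.6. The 2 below were Snrpa1 at 0.365 and Hnrnpf at 0.384, the latter at an upstream start that no peak covered. Motifs were searched on both strands in the same windows. CCGGAAG, the core bound by ETS factors, was in 19 of 56 windows (33.9%) against 12.1% of all windows, and GGGCGG, the GC box, in 67.9% against 46.9%. CCAAT was in 48.2% against 39.6%, TATAAA in 10.7% against 13.4%, TGACGTCA (CRE) in 3.57% against 2.36%, AAGATGGC (YY1) in 5.36% against 3.23% and GCGCATGC (NRF1 core) in 1.79% against 3.64%. A GC box can lie inside a longer CpG-rich stretch, and a match is a description of the letters, not a bound site. The ETS core and the GC box both hold a CpG, and the windows of all genes were not matched for CpG. Whether these shares differ from those of equally CpG-rich promoters was not tested.

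Shown are the 250 bases before the start, from RefSeq on GRCm38.p6 (the mm10 assembly), of the 6 genes in the most differential lists below whose window lies outside every annotated gene and whose listed region lies within 2 kb of the start. They run 5′ to 3′ on the strand of the gene, and capitals mark the motifs just named. Prpf38b is at chr3:108911730-108911979 (minus strand), Hnrnpa0 at chr13:58128557-58128806 (minus), Srsf6 at chr2:162931258-162931507 (plus), Hnrnpr at chr4:136310692-136310941 (plus), Prpf39 at chr12:65036084-65036333 (plus) and Snrpb2 at chr2:143062819-143063068 (plus).
Prpf38b: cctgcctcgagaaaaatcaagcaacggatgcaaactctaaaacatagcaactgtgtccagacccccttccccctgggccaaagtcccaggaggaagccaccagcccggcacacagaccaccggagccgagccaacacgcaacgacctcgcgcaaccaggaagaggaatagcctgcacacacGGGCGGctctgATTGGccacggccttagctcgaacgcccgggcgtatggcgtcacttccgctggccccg
Hnrnpa0: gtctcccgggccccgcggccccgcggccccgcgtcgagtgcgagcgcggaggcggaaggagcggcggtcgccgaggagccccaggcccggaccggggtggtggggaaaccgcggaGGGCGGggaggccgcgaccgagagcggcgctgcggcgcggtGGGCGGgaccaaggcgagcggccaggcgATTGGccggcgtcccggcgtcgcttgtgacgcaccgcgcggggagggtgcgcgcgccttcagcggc
Srsf6: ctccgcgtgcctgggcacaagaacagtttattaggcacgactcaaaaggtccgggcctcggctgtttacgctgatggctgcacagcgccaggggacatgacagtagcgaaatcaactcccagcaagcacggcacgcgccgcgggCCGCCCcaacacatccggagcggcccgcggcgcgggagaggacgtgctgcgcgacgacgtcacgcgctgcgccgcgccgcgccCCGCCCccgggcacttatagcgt
Hnrnpr: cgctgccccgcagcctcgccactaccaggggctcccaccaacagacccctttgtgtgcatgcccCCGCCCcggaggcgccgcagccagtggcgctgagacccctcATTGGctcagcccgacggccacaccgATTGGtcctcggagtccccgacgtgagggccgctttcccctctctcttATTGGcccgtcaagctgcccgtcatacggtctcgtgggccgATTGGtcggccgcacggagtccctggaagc
Prpf39: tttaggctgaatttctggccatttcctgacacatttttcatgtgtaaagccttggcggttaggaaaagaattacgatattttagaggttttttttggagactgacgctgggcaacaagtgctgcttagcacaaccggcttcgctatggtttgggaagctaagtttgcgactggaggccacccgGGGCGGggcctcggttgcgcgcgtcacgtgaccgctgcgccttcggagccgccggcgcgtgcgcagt
Snrpb2: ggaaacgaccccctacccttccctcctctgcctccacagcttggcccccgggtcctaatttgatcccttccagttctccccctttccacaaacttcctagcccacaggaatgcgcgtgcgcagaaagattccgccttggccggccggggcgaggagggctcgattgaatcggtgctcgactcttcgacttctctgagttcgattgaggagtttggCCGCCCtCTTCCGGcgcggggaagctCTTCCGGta
All 6 hold a GC box. Hnrnpr has 4 inverted CCAAT boxes, at 145, 119, 71 and 30 bases before its start, and Snrpb2 has 2 ETS cores, at 28 and 9 bases before its start. Hnrnpa0 is the most GC-rich, at 81.2% with 46 CpG in 250 bases, and Prpf39 the least, at 54.8% with 21.

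Peaks were wider at hnRNP and SR genes than at PRPF and Snrp genes. Over the 4 libraries of sets 1-2, the median peak width per gene had a family median of 1756 bp for hnRNP genes, 1478 bp for SR genes, 1068.5 bp for SF3A and SF3B genes, 934 bp for PRPF genes and 773.5 bp for Snrp genes. The median over all splicing factor genes was 1279 bp, and over all 11243 genes marked in the 4 libraries it was 1106 bp. In every one of the 4 libraries, the peak was wider than the median marked gene of that library for 15 of 18 hnRNP genes and 7 of 11 SR genes, but for 4 of 9 SF3A and SF3B genes, 2 of 12 PRPF genes and 1 of 11 Snrp genes. Together that was 29 of 61 genes (47.5%) beside 34.6% of all genes. Of the 4 SF3A and SF3B genes, Sf3b2 counted by a peak other than the one over its farthest upstream start. The families overlapped in width, and with 1 library per group no test was made.

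**Figure D2:**
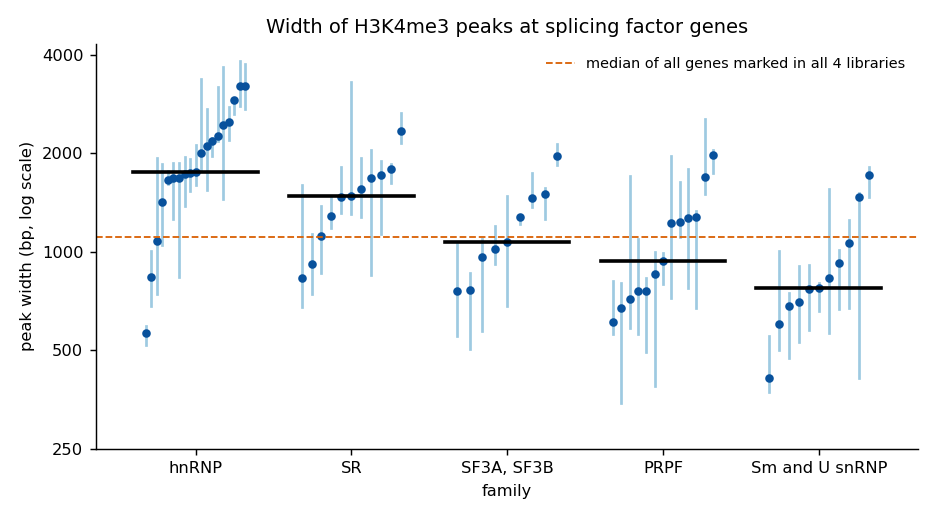
Width in bp (log axis) of the widest H3K4me3 peak at each splicing factor gene, by family. Each point is the median of 1 gene over the 4 libraries of index sets 1-2 and its line the range, black bars are family medians (hnRNP 1756 bp, Sm and U snRNP 773.5 bp), and the dashed line is the median of all genes marked in all 4 libraries (1106 bp).

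The 5 widest peaks were all at hnRNP genes. Hnrnpa2b1, whose protein binds and carries mRNA in neurons, had widths of 3327, 3751, 3091 and 2720 bp in the wild type vehicle, heterozygote vehicle, wild type TAK-418 and heterozygote TAK-418 libraries, but its start faces the neighbouring gene Cbx3. Hnrnpl, which binds CA repeats, had widths of 2779, 3038, 3822 and 3372 bp in the same order. Hnrnpdl had 2912, 2941, 2889 and 2641 bp. Hnrnpk, a poly(C)-binding protein, had 2192, 2258, 2737 and 2766 bp, and Hnrnpul2 had 1450, 2455, 3655 and 2413 bp. The spread over libraries was small for Hnrnpdl and large for Hnrnpul2. The widest outside the hnRNP genes was Srsf2, encoding the nuclear speckle protein SC35, with 2660, 2489, 2148 and 2189 bp. An end of another gene also lay within 2 kb of the regions of the differential lists below at Hnrnpdl (Enoph1), Hnrnpk (Rmi1), Hnrnpul2 (Ttc9c) and Srsf2 (Mfsd11). Whether a neighbour adds to these widths was not tested.

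The narrowest peaks were at genes of snRNP and PRPF proteins, apart from Hnrnph2 above. Snrpc, the U1 protein that helps to recognise the 5′ splice site, had widths of 553, 390, 432 and 373 bp. Snrpg, an Sm ring protein, had 502, 645, 555 and 1007 bp. Prpf19, a ubiquitin ligase of the spliceosome, had 561, 654, 811 and 562 bp, and Prpf18, which acts in the second step of splicing, had 802, 344, 611 and 738 bp. The order of the genes by width was similar between libraries, with Spearman correlations of 0.76 to 0.845 over the genes marked in both of a pair, as a description across genes that share those libraries. Over 55 genes with a promoter window, width and the number of CpG in the window had a Spearman correlation of 0.473, again as a description.

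Fold enrichment, the authors' ratio of a peak over local background, was less stable between libraries than width. Its order across genes had Spearman correlations of only 0.101 to 0.499 between the same libraries. The median over the splicing factor genes was 5.80, 4.67, 7.08 and 6.68 in the wild type vehicle, heterozygote vehicle, wild type TAK-418 and heterozygote TAK-418 libraries, beside 5.49, 4.32, 6.33 and 6.15 over all marked genes. The splicing factor genes were thus above the gene median in each library, and both medians had the same order over the libraries. The highest gene medians were at Srsf6 (8.15, 5.01, 8.20 and 8.54), Prpf38b (7.92, 5.57, 8.31 and 7.41), the Sm gene Snrpd1 (6.31, 6.32, 10.9 and 8.27), Srsf5 (6.21, 5.34, 8.34 and 9.36) and Hnrnpk (6.63, 5.72, 8.08 and 7.56). Apart from Prpf31 and Hnrnph2, the lowest were at Prpf4, a U4/U6 snRNP protein (3.30, 3.11, 3.96 and 5.77), the Sm gene Snrpd2 (3.63, 3.12, 4.44 and 5.51) and Hnrnpa1 (4.67, 3.71, 3.87 and 4.94).

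In the libraries of index sets 3-4 few splicing factor genes had a peak. The wild type vehicle libraries of these sets marked 2, 14 and 2 of the 64, the heterozygote vehicle libraries 1 each, the wild type TAK-418 libraries 0, 0 and 4, and the heterozygote TAK-418 libraries 0 each. Over these 12 libraries 20 splicing factor genes (31.2%) had a peak in at least 1, beside 3434 (15.9%) of all protein-coding genes. The library with 14 marked 23.0% of the 61 splicing factor genes marked in every library of sets 1-2, beside 17.0% of all such genes, while the library with 4 marked 6.56% beside 11.1%. Hnrnpk was marked most often, in 3 of the 12 libraries with widths of 614, 515 and 345 bp. Hnrnpab, Srsf1 and Hnrnpa0 were marked in 2 each, with widths of 484 and 292 bp, 567 and 547 bp, and 343 and 440 bp. Of those marked in 1, the genes with the highest enrichment in the libraries of sets 1-2 were Sf3b2 (340 bp), Hnrnpll (855 bp), Srsf5 (251 bp) and Hnrnpa2b1 (562 bp). The 340 bp peak of Sf3b2 lay within 2 kb of its stop and not of a start. In sets 1-2 its widest peak (1214 to 1294 bp) was not the one over its farthest upstream start. That one reached 0 to 571 bp upstream and 444 to 510 bp into the gene, so the enrichment used for Sf3b2 is that of another peak. The mean of log10(number + 1) over the 4 libraries of a group was 0.982 ± 0.637 for wild type vehicle, 0.677 ± 0.753 for heterozygote vehicle, 0.626 ± 0.853 for wild type TAK-418 and 0.450 ± 0.900 for heterozygote TAK-418 (SD, n = 4). These SDs include the gap between the index sets, since each group holds 1 library of sets 1-2. Over the 3 libraries of sets 3-4 alone the means were 0.710 ± 0.404, 0.301 ± 0, 0.233 ± 0.404 and 0 ± 0 in the same order (SD, n = 3), and no test of the differences was made.

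No splicing factor gene had an H3K4me1 peak at an end in any of 15 libraries, which held 88 to 456 peaks each and marked 16 to 65 genes. None was in the authors' 4 H3K4me1 lists, which had 47 to 59 genes each. The lists are short, so this says only that no such peak was listed.

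The authors deposited 4 lists of H3K4me3 regions that differ between groups, each with a score per library and a p of their own. Of the 4 lists, 3 use the wild type vehicle libraries as controls, and libraries are shared in other pairs too, so the lists are not independent and their values stand side by side. Of the 63 splicing factor genes with a peak or listed region at an end, 24 (38.1%) were in at least 1 list, beside 27.7% of all 13827 genes that could be listed. The genotype comparison, of heterozygotes with wild types on vehicle, listed 6 genes lower (9.52%) and 1 higher, beside 11.0% and 0.557% of all those genes. The comparison of TAK-418 with vehicle in heterozygotes listed 6 lower (9.52%) and 3 higher (4.76%), beside 3.36% and 3.47%. The comparison of TAK-418 with vehicle in wild types listed 4 lower (6.35%) and 12 higher (19.0%), beside 6.95% and 9.29%. The comparison of treated heterozygotes with untreated wild types listed 9 lower (14.3%) and 0 higher, beside 14.4% and 1.19%. These counts depend on the threshold, as do those of all genes. With a −log10 p of at least 2, TAK-418 in heterozygotes had 3 of 63 genes lower (4.76%) and 0 higher. Of all 13827 genes, 224 (1.62%) were lower there, in place of 465, and 273 (1.97%) higher, in place of 480. TAK-418 in wild types had 1 of 63 lower and 5 of 63 higher at that threshold. Of all 13827 genes, 432 (3.12%) were lower there, in place of 961, and 631 (4.56%) higher, in place of 1285.

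**Figure D3:**
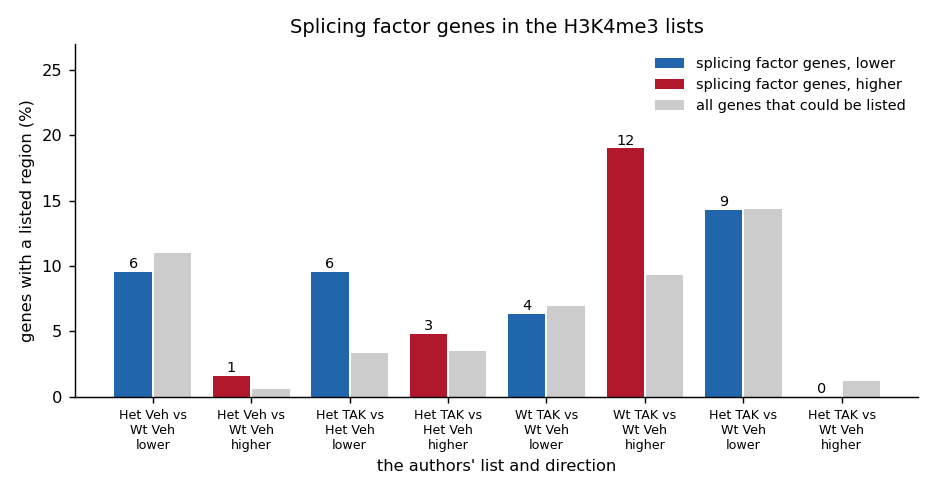
Percentage of the 63 splicing factor genes (coloured bars, with their number) and of all 13827 genes (grey bars) with a region of the authors' lists within 2 kb of an end, for each list and direction. The shares are close in the lower direction of 3 lists. They are apart for the lower genes with TAK-418 in heterozygotes (6 genes, 9.52% and 3.36%) and the higher genes with TAK-418 in wild types (12 genes, 19.0% and 9.29%). The 6 are few as well, include Sf3b2 at its stop, and fall to 3 with a −log10 p of at least 2. Fewer still are the higher genes of the genotype comparison (1 gene, 1.59% and 0.557%) and of TAK-418 in heterozygotes (3 genes, 4.76% and 3.47%).

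The shares listed lower were thus close to the background in 3 of the 4 lists. Among all genes marked in the 4 libraries of sets 1-2, 4.10% were listed lower with TAK-418 in heterozygotes and 11.3% higher with TAK-418 in wild types. The other spliceosome and splicing control genes had 1.90% and 6.67% there. No test of these shares was made.

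None of the listed regions at splicing factor genes passed a test across the libraries, but these tests had limits. The lists hold only regions already selected by the authors' own p from these libraries, so an adjusted p covers selected regions only. Each group also mixes libraries of both index sets, which the fits could not separate because the scores carry no library names. Not passing therefore does not show that a region is unchanged. The 24 genes had 42 regions in the 4 lists, and in 0 of them did the scores of the groups fail to overlap, beside 2.03%, 0.350%, 0.540% and 0.404% of all regions in the 4 lists, in the order in which their counts are given above. In limma fits on log2(score + 1) over every region of a list, 0 of the 42 had a Benjamini-Hochberg adjusted p under 0.05. Of all regions 0.00%, 0.00%, 0.00% and 0.294% did, in the same order. An unadjusted limma p under 0.05 was also found in 0 of the 42, beside 82 of 2015, 17 of 1715, 66 of 2780 and 174 of 2722 regions. The adjusted p of the 42 regions ran from 0.575 to 0.980, and two-sided exact permutation tests of each region gave p = 0.0571 to 1.00, where 4 against 4 libraries cannot go below 0.0286. Leaving out 1 score turned the direction at 8 of the 42 regions, which lie at Srsf6, Snrpb2, Hnrnpu and Hnrnpul2 (1 each) and at Sf3b2 and Hnrnpr (2 each). Such turns were not counted over all regions of the lists, so whether 8 of 42 is usual there is not known. The authors' own −log10 p for these regions was 1.36 to 4.95. The median limma difference over the listed regions at these genes was −0.67 for those listed lower in the genotype comparison, beside −0.80 over all such regions of the list. For those listed higher with TAK-418 in wild types it was 0.57, beside 0.52.

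**Figure D4:**
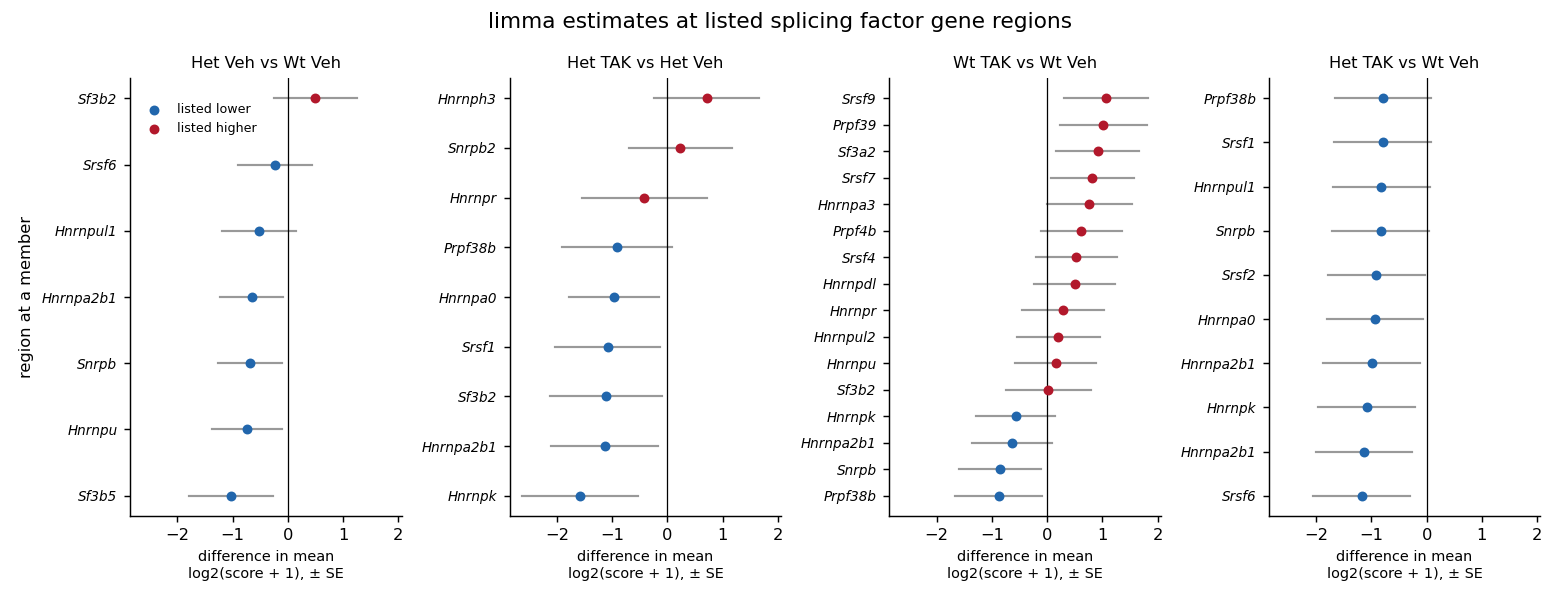
Difference in mean log2(score + 1) between the groups of each list, the group named first in a panel title minus the one named second, for each listed region at a splicing factor gene (points, blue where the authors list the region lower and red where higher) with its limma SE (lines). The estimates run from −1.58 to 1.07, and none has an adjusted p under 0.05.

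One score position was often the highest of its group. The scores of a region carry no library names, but at these regions the third score was the highest of the 4 in all 9 and all 10 regions for heterozygote TAK-418 and in all 16 for wild type TAK-418. For heterozygote vehicle the second score was the highest in 6 of 7 and 8 of 9 regions. For wild type vehicle the third was the highest in 5 of 7, 13 of 16 and 8 of 10. This was not particular to splicing factor genes. Over all listed regions at gene ends, the same positions had the largest sum of scores in every list and group. They held 33.7% to 49.5% of the summed scores of their group. With the mice of a group numbered in order of their accessions, the library of sets 1-2 is the third for wild type vehicle, the second for heterozygote vehicle, and the third for both TAK-418 groups, the same numbers as these score positions in all 4 groups. No source used here says in which order the scores stand, so no score was assigned to a library and no value within index sets is given for them. In 19 of the 42 regions the end of another gene also lay within 2 kb, and 34 of the 37 regions at genes with a known start lay within 2 kb of one.

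Among the hnRNP genes, 10 were in a list. Hnrnpa2b1 was listed lower in all 4, always together with its neighbour Cbx3, but not at a single shared region. The regions of the vehicle groups and of TAK-418 in wild types lay outside the gene, 807 and 757 bp from the nearest start. That of TAK-418 in heterozygotes lay inside the gene, 95 bp from a start. In the comparison of vehicle groups its region scored 84, 122, 165 and 122 in the wild type and 69, 97, 98 and 50 in the heterozygote libraries, or 123 ± 33.1 and 78.5 ± 23.3 (SD, n = 4), with 2 heterozygote scores above the lowest wild type score. The log2 difference was −0.66 (SE 0.57, limma adjusted p = 0.582). With TAK-418 in heterozygotes the scores were 54, 189, 46 and 45 under vehicle and 7, 15, 152 and 48 under the compound, a difference of −1.14 (SE 0.97, limma adjusted p = 0.691). In wild types they were 70, 93, 184 and 91 under vehicle and 66, 63, 146 and 30 under TAK-418. The list of treated heterozygotes against untreated wild types held 2 regions. The one inside the gene had 73, 163, 194 and 54 against 10, 31, 244 and 64, and the one outside it 132, 161, 291 and 186 against 55, 55, 240 and 98. At each of the 4 regions of the comparisons with TAK-418, the treated group had 1 score above at least 3 of the 4 control scores.

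Hnrnpk was listed lower in the 3 comparisons with TAK-418, near its start and close to the end of Rmi1. The region in wild types was a separate one, 734 bp from the start, while those of the heterozygotes on TAK-418 lay 17 bp from it. In heterozygotes the scores were 106, 234, 140 and 63 under vehicle and 45, 3, 210 and 72 under TAK-418, or 136 ± 72.7 and 82.5 ± 89.6 (SD, n = 4), with a difference of −1.58 (SE 1.05, limma adjusted p = 0.691), the farthest from 0 of the 42 regions. In wild types they were 113, 113, 66 and 101 under vehicle and 42, 67, 117 and 52 under TAK-418. Against wild type vehicle (46, 183, 337 and 125) the heterozygotes on TAK-418 scored 52, 16, 246 and 81. In heterozygotes 2 treated scores lay below every vehicle score, and 1 treated score was the second highest of all 8.

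Hnrnpa0, a binder of AU-rich elements, had the largest −log10 p of the authors among these genes, 4.95. Its scores were 263, 314, 152 and 193 in heterozygote vehicle and 53, 93, 287 and 116 in heterozygote TAK-418 libraries, or 231 ± 72.1 and 137 ± 103 (SD, n = 4). Of the treated scores, 3 lay below all 4 vehicle scores and 1 above 3 of them, and the difference was −0.96 (SE 0.82, limma adjusted p = 0.691, exact permutation p = 0.143). Against wild type vehicle (118, 157, 144 and 148) the treated heterozygotes scored 26, 75, 193 and 76.

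Hnrnpul1, an hnRNP U-like protein whose region also lies at Axl, was listed lower in both comparisons of heterozygotes with wild type vehicle. Its scores were 74, 37, 236 and 155 in wild type and 87, 90, 47 and 63 in heterozygote vehicle libraries, and 95, 56, 311 and 199 in wild type vehicle against 41, 33, 236 and 103 in heterozygote TAK-418 libraries. Hnrnpu, a nuclear matrix protein, scored 119, 120, 262 and 151 in wild type and 58, 210, 60 and 98 in heterozygote vehicle libraries. It was listed higher in wild type TAK-418, where its log2 difference was 0.16 (SE 0.73). In both genes the ranges of the groups overlapped.

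The remaining hnRNP genes were listed higher. With TAK-418 in wild types, Hnrnpdl, at a region shared with Enoph1, scored 74, 122, 188 and 87 under vehicle and 190, 94, 365 and 92 under TAK-418. Hnrnpa3 scored 34, 59, 260 and 81 under vehicle and 88, 68, 281 and 216 under TAK-418, with a difference of 0.77 (SE 0.76, limma adjusted p = 0.779). Hnrnph3, at a region shared with Pbld2, scored 21, 106, 16 and 12 in heterozygote vehicle and 73, 19, 146 and 16 in heterozygote TAK-418 libraries. Hnrnpr was listed higher with TAK-418 in both genotypes and Hnrnpul2 in wild types. For Hnrnpr in heterozygotes the mean score was 103 against 74.3, yet the mean of the logs was lower (−0.42, SE 1.13), since 1 treated library scored 2. It was the only one of the 42 regions with this mismatch of sign.

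**Figure D5:**
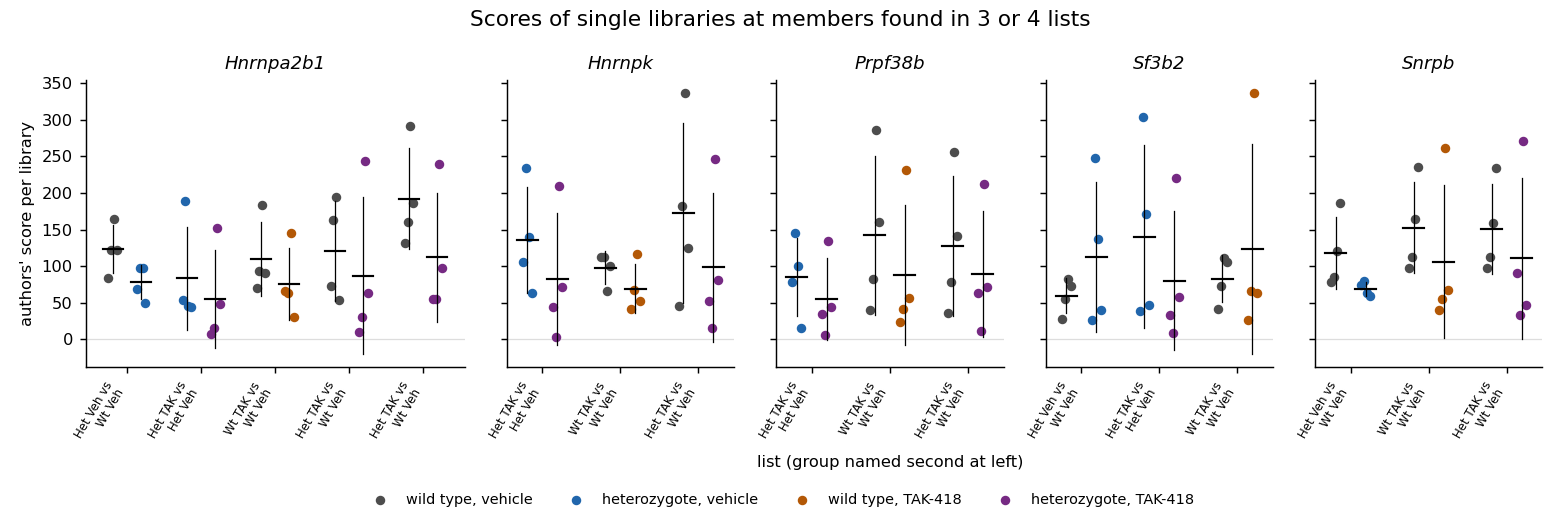
Authors' scores of single libraries (points, coloured by group) at every listed region of the 5 genes found in 3 or 4 lists, with the comparison group (named second in each axis label) at the left and the other at the right. Horizontal bars are means and vertical lines SD (n = 4), which overlap between the groups of every region shown.

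SR genes were listed in both directions. Srsf1, the prototype SR protein, was listed lower in heterozygote TAK-418 against either vehicle group, with 52, 267, 295 and 80 in wild type vehicle and 33, 27, 289 and 134 in treated heterozygote libraries. Srsf2, at a region shared with Mfsd11, was listed lower in the same comparison, with 138, 88, 298 and 175 against 38, 90, 246 and 59 and a difference of −0.91 (SE 0.87, limma adjusted p = 0.613). Srsf6 was listed lower in heterozygotes on vehicle and on TAK-418 against wild type vehicle. Srsf4, Srsf7 and Srsf9 were listed higher in wild type TAK-418. Of these Srsf9 had the estimate farthest from 0, with 24, 46, 129 and 14 under vehicle and 54, 70, 181 and 62 under TAK-418 and a difference of 1.07 (SE 0.76, limma adjusted p = 0.779). All treated scores lay above 3 of the 4 vehicle scores, and the highest vehicle score exceeded 3 treated ones.

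In the SF3A and SF3B complexes, Sf3b5 was listed lower in heterozygote vehicle, with 37, 34, 107 and 126 in wild type and 39, 95, 9 and 26 in heterozygote libraries. Its difference was −1.03 (SE 0.76, limma adjusted p = 0.575). Sf3a2, at a region shared with Plekhj1, was listed higher in wild type TAK-418, with 13, 54, 50 and 18 under vehicle and 25, 43, 126 and 64 under the compound. Sf3b2 was in 3 lists, but its regions lay 22405 to 22505 bp from its start, at its stop beside Pacs1, so they do not report on its promoter. There the wild type and heterozygote vehicle libraries scored 28, 55, 82 and 73 against 27, 248, 137 and 40. Heterozygote vehicle and TAK-418 libraries scored 39, 304, 172 and 47 against 34, 9, 220 and 58, and wild type vehicle and TAK-418 libraries 42, 73, 111 and 106 against 27, 66, 337 and 63. Where the region was listed higher, 1 or 2 scores of the second group lay above every score of the first, and the others lay within or below its range.

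Of the Snrp genes, Snrpb, which encodes the Sm B and B′ proteins, was listed lower in the 3 comparisons with wild type vehicle. Against heterozygote vehicle the wild type scores were 79, 85, 121 and 187 and the heterozygote scores 74, 80, 64 and 59, or 118 ± 49.6 and 69.3 ± 9.50 (SD, n = 4). Only 1 heterozygote score exceeded the lowest wild type score, and the exact permutation p of 0.0571 was the lowest of the 42 regions, with a difference of −0.68 (SE 0.57, limma adjusted p = 0.575). The wild type libraries scored 97, 113, 165 and 235 under vehicle against 40, 55, 262 and 67 under TAK-418. Against treated heterozygotes the wild type vehicle scores were 97, 113, 159 and 234 and the heterozygote scores 91, 34, 271 and 47. In both of these the highest score of all 8 was in the group listed as lower. Snrpb2, the U2 protein B″, was listed higher with TAK-418 in heterozygotes, with 80, 56, 72 and 15 against 60, 15, 222 and 46.

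Among PRPF genes, Prpf38b, related to the B-complex factor PRPF38A, was listed lower in the 3 comparisons with TAK-418. In wild types its scores were 40, 82, 286 and 161 under vehicle and 24, 41, 231 and 57 under TAK-418, with a difference of −0.87 (SE 0.79, limma adjusted p = 0.779). In heterozygotes they were 79, 145, 100 and 16 under vehicle and 35, 6, 135 and 45 under TAK-418. Wild type vehicle against treated heterozygotes gave 36, 78, 256 and 141 against 63, 11, 213 and 71. The groups overlapped across most of their range in each. Prpf39, a U1-associated factor, was listed higher in wild type TAK-418, with 19, 54, 162 and 17 under vehicle and 47, 105, 212 and 49 under TAK-418 and a difference of 1.02 (SE 0.78, limma adjusted p = 0.779). Prpf4b, a spliceosomal kinase, was listed higher in the same list.

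The other spliceosome and splicing control genes gave 54 listed regions. Of 105 such genes that could be listed, 16 (15.2%) were lower in heterozygote vehicle, beside 11.0% of all genes. With TAK-418 in heterozygotes 2 were lower (1.90%) and 1 higher (0.952%), beside 3.36% and 3.47%. With TAK-418 in wild types 9 were lower (8.57%) and 7 higher (6.67%), beside 6.95% and 9.29%. In treated heterozygotes against wild type vehicle 19 were lower (18.1%), beside 14.4%. The largest −log10 p of the authors in the vehicle comparison belonged to Sap18, Rbm39, Luc7l2 and the neuronal splicing regulator Nova1, all listed lower. Nova1, 1 of the 16 genes of the vehicle comparison, had the only region of these 54 at which the groups did not overlap. Over all regions the share without overlap was 2.03% in the vehicle comparison. It was 0.350% for TAK-418 in heterozygotes, 0.540% for TAK-418 in wild types and 0.404% for treated heterozygotes against wild type vehicle. The Nova1 scores were 67, 61, 132 and 93 in wild type and 39, 42, 58 and 24 in heterozygote vehicle libraries. With TAK-418 in heterozygotes the listed genes were Snu13 and Sart3, lower, and the SR protein kinase gene Srpk1, higher. With TAK-418 in wild types the first were Rbm39, U2surp, Sap18 and Cdc5l, all lower, and in treated heterozygotes against wild type vehicle Clk3, Lsm1, Khdrbs1 and U2surp, all lower. The Luc7l2 region lay 3773 bp from the nearest known start, and the regions of Sart3 and Lsm1 were shared with Iscu and Bag4. Directions also differed between lists: with TAK-418 in wild types Sart3 and Lsm1 were listed higher and Srpk1 lower.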

How the data were processed

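H3K4me3 and H3K4me1 were measured by ChIP-seq in 31 libraries. The submitters' processing notes name mm10, MACS2, MACS and bedtools. For the aligner, the peak threshold and the differential tool, the sources used here give no name or value. In the deposited peak lists the authors give a fold enrichment (a ratio) and the −log10 p and q of each peak. The differential lists carry the authors' −log10 p and a whole-number score per library, taken as normalized, of unknown scaling and compared only within a list. Which library a score belongs to is not stated, and the strand column was read as the direction, lower or higher in the second group. Each library of a mark came from a separate mouse.

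RefSeq genes (GRCm38.p6) were matched by symbol. For each gene and library the widest peak within 2 kb of an end was taken. The list shares are over genes with a peak in any library or a listed region. limma 3.58.1 (R 4.3.3) was fitted on log2(score + 1) over each list, and single regions were tested by two-sided exact permutation with scipy 1.17.1 (Python 3.11.15, numpy 2.4.6, pandas 2.3.3, matplotlib 3.10.9). A run of limma on simulated scores used independent noise, without the gap between libraries, so it does not show how the fits behave on the real scores. The planned test on the number of marked genes was not run, since it would be a test of a score over chosen genes. The members and lists were chosen with earlier results of these data known. Named with scores are the up to 6 genes per list with the largest −log10 p of the authors and the genes in 3 or more lists. Others named are the 3 genes without a peak in every library of index sets 1-2, the 8 marked most often in sets 3-4, the 5 widest, narrowest, highest and lowest in enrichment, and up to 4 other splicing genes per list. Alternatives were windows of 1 kb and 5 kb, starts only, −log10 q of at least 5, −log10 p of at least 2, log2(score + 10), a mean score of at least 30, limma with trend and robust, and leaving out libraries or scores. The scores of a region are 4 per group, which limits their precision.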

Additional observations from a re-analysis of the deposited data

Results flagged for a closer look

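Among the groups of 4 values looked at, 9 of 68 held 1 value set far apart from the other 3, by the 95% limit of Dixon's ratio. Chance flags about 1 in 20 independent groups, but these groups reuse the same libraries, so the 2 shares cannot be compared. In 3 of the 4 groups the number of marked splicing factor genes stood apart in the library of index sets 1-2, at 63 in heterozygote vehicle, 63 in wild type TAK-418 and 62 in heterozygote TAK-418. Of 64 sets of scores, 6 stood apart, each by its highest score. For heterozygote vehicle these were 189 at Hnrnpa2b1 and 106 at Hnrnph3, both in the comparison with heterozygote TAK-418. For wild type TAK-418 against vehicle they were 262 at Snrpb, 231 at Prpf38b, 181 at Srsf9 and 337 at Sf3b2. At Snrpb and Prpf38b the authors list the group with this high score as lower, and at Srsf9 and Sf3b2 as higher.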

How the results depend on the processing

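With peaks of −log10 q of at least 5, 24 splicing factor genes in place of 61 were marked in all 4 libraries of index sets 1-2, and 0 in place of 20 in any library of sets 3-4. With list regions of −log10 p of at least 2, 3 genes in place of 6 were lower and 0 in place of 3 higher with TAK-418 in heterozygotes, and 1 in place of 4 lower and 5 in place of 12 higher in wild types. Over all genes these were 224 in place of 465 and 273 in place of 480 in heterozygotes, and 432 in place of 961 and 631 in place of 1285 in wild types. With starts only, 0 in place of 1 gene was higher in heterozygote vehicle. The other counts of listed genes stayed within 1.5 times. The differences between groups in mean log10(number + 1) did not all keep their sign. With −log10 q of at least 5 they turned from −0.227 to 0.0734 for TAK-418 against vehicle in heterozygotes, from −0.356 to 0.0253 in wild types and from −0.533 to 0.0369 for heterozygote TAK-418 against wild type vehicle. Without replicate 2 of heterozygote vehicle, its library of sets 1-2, the first was 0.149. Without all libraries of sets 1-2 the differences were −0.301, −0.477 and −0.710, and −0.409 in place of −0.305 for the genotypes on vehicle. Of the whole list of treated heterozygotes, 8 regions, none at a splicing factor gene, passed in limma, and 0 with log2(score + 10). Of 504 refits of the 42 regions, 487 kept the direction and 0 reached an adjusted p of 0.05 (lowest 0.0792). Without the highest score position of each group, an alternative chosen after seeing the data, the difference turned to −0.35 at Snrpb2 (TAK-418 in heterozygotes) and, with TAK-418 in wild types, to −0.051 at Hnrnpu, −0.50 at Sf3b2 and −0.20 at Hnrnpul2. Leaving out 1 score in turn, the difference turned sign at 8 regions: it ran from −0.57 to 0.24 at Srsf6 and −0.055 to 0.996 at Sf3b2 (genotype), from −0.43 to 0.84 at Snrpb2 and −1.20 to 0.90 at Hnrnpr (TAK-418 in heterozygotes), and, with TAK-418 in wild types, from −0.31 to 0.41 at Hnrnpu, −0.15 to 0.63 at Hnrnpr, −0.67 to 0.53 at Sf3b2 and −0.34 to 0.54 at Hnrnpul2. The cause was not tested, and turns of sign were not counted over all regions of the lists. No paired analysis was possible because the scores carry no library names and replicate numbers of different groups belong to different mice. The lists give no depth, so an unmarked gene is not shown to lack the mark.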
